A study of Drosophila melanogaster with 23 samples.

Results

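In S2R+ cells moved from 25 to 14 °C, 155 of 32161 array probes belonged to a set whose signal was at least 1 log2 unit lower after 72 h and had covered at least 50% of that fall by 12 h. The members were chosen by the log2 values that the authors deposited. A probe was taken if its mean at 72 h was at least 1 below the mean of the 6 arrays at 25 °C, if its mean at 12 h had covered at least 50% of that distance, and if each array at 72 h was below all 6 arrays at 25 °C. Probes whose change at 72 h had shrunk to less than 50% of their lowest earlier change were to be dropped, which removed 0 of these probes. Of 4 probes that the rule left out by name, 2 met its other conditions. The 123 probes with the same total fall but less than 50% of it by 12 h are called the slower set.

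S2R+ is a Drosophila cell line of embryonic origin that is most similar to hemocytes, the blood cells of the fly. Total RNA from dishes of cells was hybridized to 23 Agilent single-colour arrays. Cells were taken when the downshift began (0 h, n = 3), after another 12 h without downshift (t12_25, n = 3) or after 4 h (n = 5), 12 h (n = 3), 24 h (n = 5) or 72 h (n = 4) in the cold. All groups were 1 untreated line in the same medium, and t12_25 served as a control whose cells had grown about as dense as those at 72 h. The 0 h and t12_25 arrays together are the 25 °C baseline. All levels below are log2 intensities and all changes are differences in log2 intensity, so that a change of -1 is a halving of the signal.

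Between 46.79% and 58.08% of the probes on an array were well above background, no spot was saturated, and 6 arrays (1 of 4 h, 2 of 12 h and 3 of 72 h) were outside the quality range of the scanner software. The arrays were on 7 slides, scanned on 2 dates. Slides 1 and 2 shared one date and the other slides the other, and each group had arrays from both. Most of the 6 arrays outside the quality range were on slides 1 and 2. Of the 12 h and 72 h arrays, 1 each lay on a slide without arrays at 25 °C (slide 2), and all 4 h and 24 h arrays shared slides only with other cold arrays. The hemocyte identity could be checked with 3 of 12 marker genes (srp, ush and vkg), whose probes were well above background on all 6 arrays at 25 °C. Of 13 probes for markers of neuron, muscle, fat body, germ line and gut, 2 were (Syt1 and a probe of AGO3). None of these 16 marker probes was called at 24 h against 4 h by limma, with 2 at an unadjusted p under 0.05.

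Much of what is known of the named members concerns the copying of DNA. In G1 phase the origin recognition complex, with Cdc6 and Cdt1 (dup in Drosophila), loads the ring of MCM proteins onto origins. In S phase Cdc45 and the GINS complex turn this ring into the active helicase, and DNA polymerase alpha with its primase starts each new strand. Transcripts of many of these proteins are made around the entry into S phase, under the control of E2F. On an array of RNA from a whole dish, fewer cells in one cell cycle phase and less RNA per cell cannot be told apart.

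The members were well above background on all 6 arrays at 25 °C in 155 of 155 cases, and 152 were so on all 23 arrays. Measured anew from the scanner intensities, their median change from 25 °C was -0.38 at 4 h, -0.92 at 12 h, -1.16 at 24 h and -1.22 after 72 h. The 12 h and 72 h values follow from the selection, and those at 4 h and 24 h share its 25 °C arrays. All are descriptions, and no test was made of any time point against 25 °C. The median over all 32162 probes stayed within 0.004 of zero at each time. In the slower set the medians were -0.11, -0.41, -0.86 and -1.25 at 4, 12, 24 and 72 h. The medians of the 2 sets were close at 72 h, and those of the members were the lower ones at 4, 12 and 24 h.

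Single arrays of a group gave nearly the same median over the 155 members. The array medians of the change were -0.02 ± 0.031 at 0 h (SD, n = 3), 0.00 ± 0.05 at t12_25 (SD, n = 3), -0.42 ± 0.044 at 4 h (SD, n = 5), -0.93 ± 0.023 at 12 h (SD, n = 3), -1.19 ± 0.061 at 24 h (SD, n = 5) and -1.25 ± 0.065 after 72 h (SD, n = 4). The highest array at 4 h, at -0.38, was below the lowest array at 25 °C, at -0.05. The 24 h and 72 h arrays overlapped, with -1.30 to -1.15 at 24 h and -1.34 to -1.19 at 72 h.

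**Figure D1:**
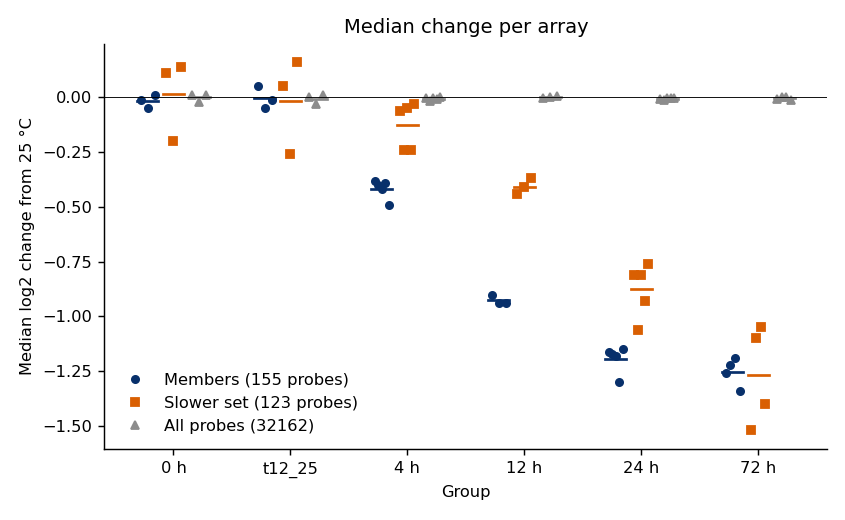
Median log2 change from the mean of the 6 arrays at 25 °C on each array (points) and the mean of the arrays of a group (lines), for the 155 members, the 123 probes of the slower set and all 32162 probes. The members' arrays lie between -0.49 and -0.38 at 4 h, where those of the slower set lie between -0.24 and -0.03.

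Slides that held both temperatures gave like values for 12 h and 72 h, and none held 25 °C arrays together with 4 h or 24 h arrays. The median difference over the members between 12 h and 25 °C arrays was -0.90 on slide 1 and -0.90 on slide 3. Between 72 h and 25 °C arrays it was -1.19 on slide 1, -1.33 on slide 5 and -1.25 on slide 6, and since these arrays chose the members, both sets of values are descriptions. With slide as a term in the fit, the medians at 4, 12, 24 and 72 h were -0.40, -0.89, -1.18 and -1.21. In that fit the 4 h and 24 h arrays were tied to 25 °C only through slide 2, so that these values rest on few arrays. Single members could move more than the medians. At 4 h, Hsp23 went from -0.40 to 0.90 and Had2 from -0.62 to 0.19.

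The pace differed among the members. The median share of the 72 h fall that had been reached was 29.6% by 4 h (quartiles 19.1% and 43.1%), 72.0% by 12 h (59.9% and 85.3%) and 92.0% by 24 h (79.3% and 104.0%). In the slower set these medians were 8.8%, 33.5% and 67.9%. By 4 h, 28 members had covered 50% or more of their fall and 4 had covered all of it. The lowest group mean was at 72 h for 99 members, at 24 h for 47, at 12 h for 7 and at 4 h for 2. At the edge of the rule, the 3 members with the smallest share by 12 h in the authors' values had 50.5%, 51.0% and 51.1% (the third being Had2), and the nearest probes outside had 48.8%, 48.1% (RnrS, the small subunit of ribonucleotide reductase) and 48.0%. The changes at 72 h closest to the limit were -1.003, -1.003 and -1.004 inside and -0.999, -0.999 and -0.997 outside.

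**Figure D2:**
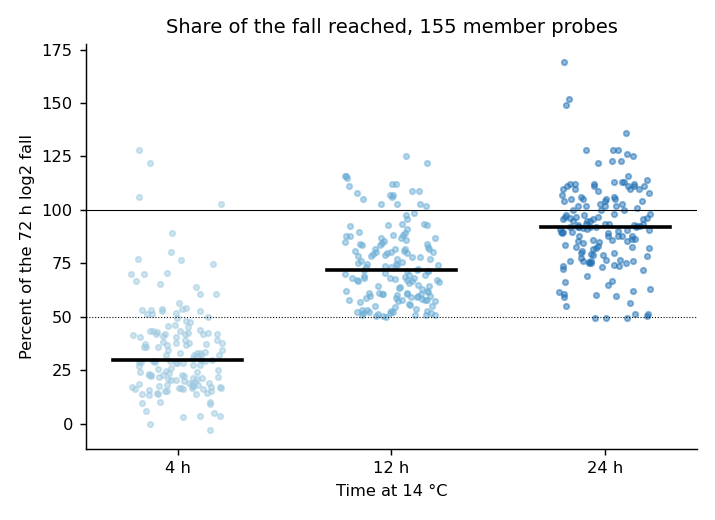
Share of the 72 h log2 fall reached by 4, 12 and 24 h at 14 °C for each of the 155 members (points), with medians of 29.6%, 72.0% and 92.0% (thick lines). The dotted line marks the 50% that the rule required at 12 h in the authors' values, and the thin line the level at 72 h.

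Each array at 12 h was below each array at 25 °C for 146 members, against 6.68% of all probes, and the same held at 72 h for 146 members, against 6.45%. The rule asked for this at 72 h in the authors' values and used the mean at 12 h, so that nothing is read from these 2 counts. At 4 h there were 56 such members, against 2.36% of all probes, and at 24 h 139, against 5.15%. The arrays at 25 °C in these comparisons had also chosen the members, so that the 4 h and 24 h counts are descriptions too. The heat map of all members shows the same order of events, with a pale 4 h block for most rows and a block at the bottom that was already dark at 4 h.

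**Figure D3:**
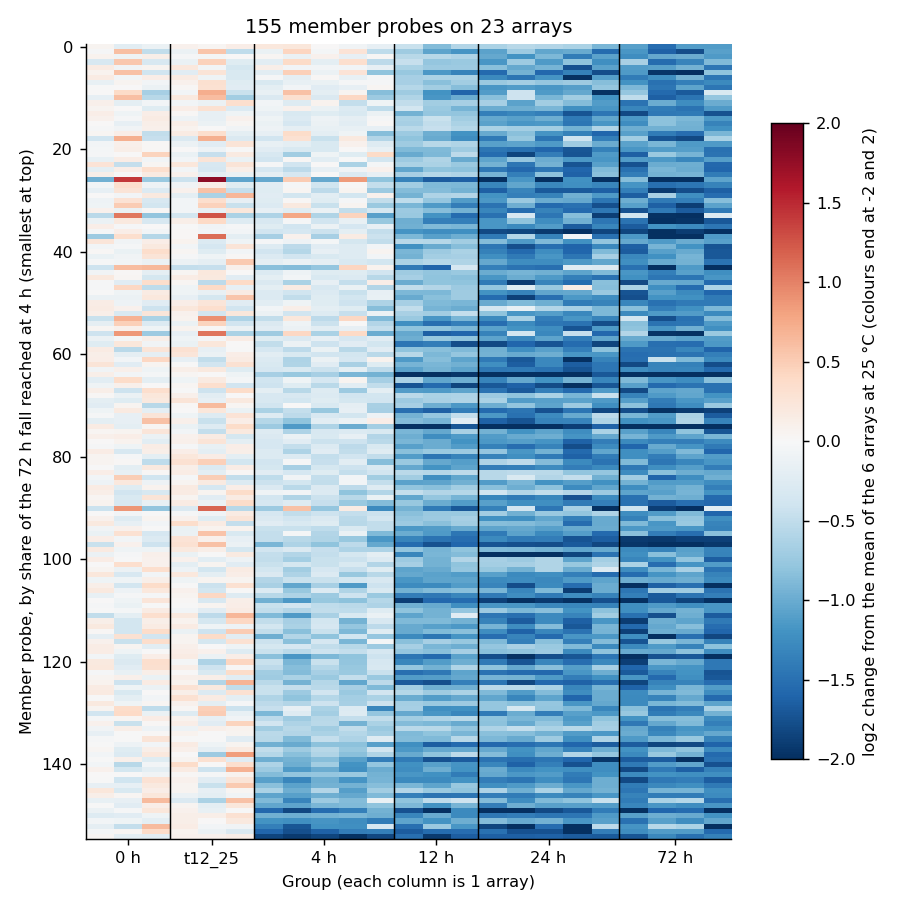
Log2 change of each member (155 rows) on each array (23 columns) from the mean of the 6 arrays at 25 °C, with blue for lower and red for higher. Rows are ordered by the share of the 72 h fall reached at 4 h, and the 28 members with 50% or more of it by then are at the bottom.

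The comparison of 24 h with 4 h at 14 °C used no array that had chosen a member, except through the removal of transient falls, which removed none. Of the 155 members, 115 were lower at 24 h than at 4 h (74.2%) in limma at an adjusted p under 0.05, against 3.43% of all probes. In the other direction 0 members were called, with 2 at an unadjusted p under 0.05, against 3.01% of all probes. The median difference was -0.76 with a median SE of 0.13, over a range of -1.56 to 0.23, and 152 members were lower in sign against 49.5% of all probes. For 115 members each 24 h array was below each 4 h array, against 3.6% of all probes. The difference was at least 2-fold for 38 of the called members.

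Both groups shared their slides, so that the difference could be taken within each. The median over the members was -0.68 on slide 2 (1 array at 24 h against 1 at 4 h), -0.76 on slide 4 (2 against 2) and -0.80 on slide 7 (2 against 2), with 152, 152 and 150 members lower at 24 h, against 49.9%, 49.9% and 48.6% of all probes. Same-numbered arrays of both groups lay on the same slide. The number of lower calls was 123 with the replicate number as a block and 137 with the slide as a block. In the slower set, 98 of 123 probes were lower at 24 h than at 4 h, against 3.43% of all probes. The median difference in that set was -0.76. A difference between the sets was not tested.

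Cells kept 12 h longer at 25 °C differed from those at 0 h in time in culture and cell density. Of the 155 members, 0 were called lower (against 0.0% of all probes) and 0 higher (against 0.0%) at t12_25 than at 0 h in limma, with 1 lower and 7 higher at an unadjusted p under 0.05. The median difference was 0.02 over all arrays, 0.00 on slide 1 and 0.03 on slide 3, the range over members was -0.57 to 0.63 and the median SE was 0.17. The rule asked for each 72 h array to be below all arrays of both groups. A probe that fell strongly at t12_25 was therefore less likely to be chosen. With 0.0% of all probes called, nothing is read from these counts. Whether density or time in culture affected the members was not tested.

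Only 29 member probes, for 26 genes, could be given a gene name, and the others carry transcript or clone names alone. Most names came from process lists and from parts of result tables of the study, which do not sample the array evenly, so that the share of a function among the named members says nothing of the unnamed ones. The largest group among the named ones was DNA replication, with 12 probes for 10 genes. Of these 12 probes, 11 were lower at 24 h than at 4 h. The MCM helicase ring was represented by Mcm2, Mcm3, dpa (the Drosophila Mcm4), Mcm5 and Mcm6, its loader by Orc6, its GINS activator by Sld5, and strand initiation by PolA2 (a subunit of DNA polymerase alpha without polymerase activity), Prim2 (the large subunit of primase) and Ctf4 (which ties the helicase to polymerase alpha).

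The largest fall of the helicase list at 72 h was that of dpa. Its level was 14.51, 14.28 and 14.51 at 0 h and 14.40, 14.20 and 14.28 at t12_25. At 14 °C it was 14.21, 14.07, 14.13, 14.06 and 14.26 at 4 h, 13.43, 13.59 and 13.58 at 12 h, 13, 13.07, 13.01, 12.65 and 12.93 after 24 h, and 12.57, 12.94, 12.96 and 12.62 after 72 h. The 4 h arrays overlapped with those at 25 °C, all later arrays were below them, and the signal at 72 h was 0.331 of that at 25 °C. The 24 h arrays were lower than the 4 h arrays by a log2 difference of -1.21 (SE 0.088, limma adjusted p = 5.16e-08).

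The other MCM genes with member probes had a like course. Mcm2 averaged 12.87 ± 0.07 at 25 °C (SD, n = 6), 12.62 ± 0.11 at 4 h (n = 5), 11.95 ± 0.03 at 12 h (n = 3), 11.56 ± 0.22 at 24 h (n = 5) and 11.47 ± 0.21 after 72 h (n = 4). Its 24 h arrays differed from the 4 h arrays by -1.06 (SE 0.094, adjusted p = 4.29e-07). Mcm5 had covered 25.5% of its fall by 4 h and 59.3% by 12 h, and was lower at 24 h than at 4 h by -1.05 (SE 0.14). Both probes of Mcm6 were late, with 3.12% and 3.64% of the fall by 4 h, and their differences between 24 h and 4 h were -1.09 (SE 0.078) and -1.08 (SE 0.14). The 2 probes of Mcm3 had reached 73.9% and 105% of their fall by 12 h and differed by -0.99 (SE 0.14) and -0.86 (SE 0.19) between 24 h and 4 h, both called. Mcm7, of the same ring, had no member probe. A probe of it changed by -0.31 at 12 h and -0.92 at 72 h and was lower at 24 h than at 4 h (-0.75). Another, well above background on 3 of the 6 arrays at 25 °C, changed by -0.48 and -0.30 and was not called (-0.12, limma adjusted p = 0.925).

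Of the named members, Orc6 fell the most between 4 h and 24 h. It had 8.38, 8.31, 8.40, 8.56 and 8.92 after 24 h, against 9.91, 9.81, 9.91, 10.04 and 10.19 at 4 h. No array of one group reached into the other, and the difference was -1.46 (SE 0.12, adjusted p = 1.76e-07). At 72 h Orc6 stood at 9.17, 9.56, 9.33 and 9.06, above each of the 24 h arrays, and its 24 h change was 169% of that at 72 h. Sld5 had 11.01 ± 0.21 at 24 h, against 12.08 ± 0.11 at 4 h (SD, n = 5 each), with a difference of -1.06 (SE 0.1, adjusted p = 1.63e-06).

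Among the members for strand initiation, PolA2 had the largest fall at 72 h. Its levels were 11.22, 11.32 and 10.69 at 0 h, 11.34, 11.51 and 10.99 at t12_25, 11.01, 11.54, 10.98, 11.10 and 10.33 at 4 h, 10.46, 10.20 and 9.98 at 12 h, 10.17, 10.34, 10.00, 9.83 and 9.59 after 24 h, and 10.09, 9.78, 9.65 and 10.26 after 72 h. The values at 4 h spanned those at 25 °C, the single low one being on slide 2, and from 12 h on all arrays were below the lowest at 25 °C. The 24 h arrays were lower than the 4 h arrays by -1.01 (SE 0.2, adjusted p = 0.00236). Prim2 had 10.12 ± 0.18 at 24 h, against 11.09 ± 0.10 at 4 h (SD, n = 5 each), and the difference of -0.97 (SE 0.088) had an adjusted p of 5.82e-07. Ctf4 differed by -1.01 as well, but with an SE of 0.33 it missed the threshold (adjusted p = 0.0826), and its adjusted p ranged from 5.73e-06 with the slide as a block to 0.213 over 21 other settings.

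**Figure D4:**
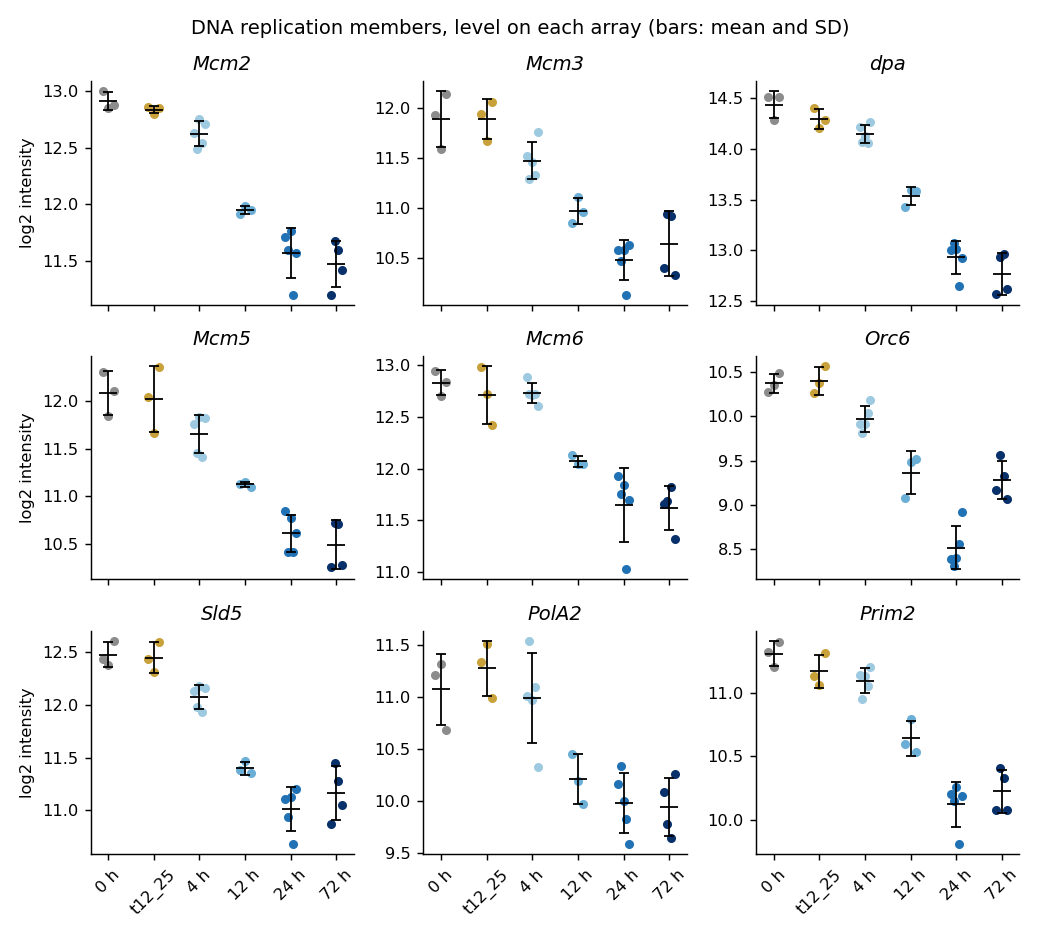
Log2 intensity of 9 DNA replication members on each array (points) with the mean and SD of each group, for the probe with the higher signal where a gene has 2. In all panels but that of PolA2 the 24 h points all lie below the 4 h points, and Orc6 is higher again at 72 h (9.28 ± 0.22).

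Many replication genes outside the set were also lower at 24 h than at 4 h. Of 28 probes for origin licensing and helicase genes, 9 were members, 2 belonged to the slower set, and 21 were lower at 24 h than at 4 h with 0 higher (0 also at an unadjusted p under 0.05, limma). The called probes outside the set included those of dup (-1.07), Mcm10 (-0.91), both Orc1 probes (-0.85 and -0.83) and Cdc6 (-0.72), whose changes at 72 h stopped short of -1 (-0.97, -0.73, -0.98, -0.90 and -0.69). Of the other GINS genes Psf1 was called (-0.70), and Psf2 (-0.38) and probes of Psf3 (-0.14 and -0.15) were not. Probes of Orc2 at -0.27 and -0.12 were not called either, while another was (-0.58). Of 18 probes for polymerases and fork factors, 3 were members (16.7%, against 0.482% of all probes). At 24 h against 4 h, 10 of the 18 were lower (55.6%, against 3.43%) and 0 higher (against 3.01%, 0 also unadjusted). Both PolA1 probes were called, at -0.81 and -0.87. Prim1, the small primase subunit that the rule left out by name, was at -1.68. Over both lists, 20 of 34 probes outside the set were lower, against 3.43% of all probes.

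Ribonucleotide reductase, which makes the DNA precursors, lay in the slower set. Its subunits RnrL and RnrS had changes at 12 h of -0.49 and -0.64 and at 72 h of -1.19 and -1.34. Of 3 probes in the list of nucleotide supply genes 0 were members. The list of S phase genes that the study had curated from annotation and publications held 53 probes, of which 11 were members (20.8%, against 0.482% of all probes), 4 were in the slower set and 35 were lower at 24 h than at 4 h (66.0%, against 3.43% of all probes). The median level at 25 °C was 10.84 in this list, 10.72 in the study's M phase list and 10.47 over the members, against 6.34 over all probes. Shares over all probes were therefore not matched for signal level.

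Of 45 probes in the study's list of M phase genes 1 was a member (2.22%, against 0.482% of all probes). At 24 h against 4 h, 9 of the 45 were lower (20.0%, against 3.43% of all probes) and 1 (aurA, a mitotic kinase, 0.49) was higher (2.22%, against 3.01%). Of 31 probes for cyclins, kinases and checkpoint genes 0 were members (against 0.482% of all probes). At 24 h against 4 h, 5 of the 31 were lower (16.1%, against 3.43%) and 1 higher (3.23%, against 3.01%). The M phase member was Mis12, which belongs to the kinetochore, where spindle fibres attach to the chromosome. Its levels were 10.11, 10.10 and 10.03 at 0 h, 10.12, 10.08 and 10.17 at t12_25, 9.23, 9.31, 9.32, 9.36 and 9.16 at 4 h, 8.93, 8.89 and 8.70 at 12 h, 9.07, 8.95, 8.99, 8.70 and 8.91 after 24 h, and 8.84, 8.90, 8.87 and 8.87 after 72 h. All 4 h arrays were already below all arrays at 25 °C, with 66.9% of the fall, and 103% of it was reached by 12 h. The remaining difference between 24 h and 4 h was -0.35 (SE 0.06, adjusted p = 0.000638). Nnf1a and Nnf1b, of the same complex, had changes of -0.68 and -0.91 at 12 h and of -0.33 and -0.30 at 72 h, and their differences between 24 h and 4 h (-0.19 and -0.23) were not called. The neighbouring kinetochore genes Ndc80, Nuf2 and Spc25 had changes of -0.61, -0.58 and -0.42 at 12 h and of -0.82, -0.98 and -1.16 at 72 h, and all 3 were lower at 24 h than at 4 h (-0.53, -0.46 and -0.58). Spc105R had 0.37 at 12 h and -0.13 at 72 h, and Kmn1 had -0.24 and 0.02, neither of them called.

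Further early members were PolG1, the DNA polymerase of mitochondria, with 56.3% of its fall by 4 h, nopo, a ubiquitin ligase, with 52.9%, and the 2 probes of Gen, a nuclease that cuts branched DNA, with 52.0% and 51.2%. PolG1 had 9.56 ± 0.15 at 24 h, against 10.08 ± 0.15 at 4 h (SD, n = 5 each), a difference of -0.53 (SE 0.1, adjusted p = 0.00264). The differences of nopo (-0.36, SE 0.086, adjusted p = 0.0106) and of the Gen probe with 51.2% by 4 h (-0.39, SE 0.088, adjusted p = 0.00693) were small and called. Both calls were lost on processed signals scaled by the 75th percentile, and over all 21 settings the adjusted p ranged from 0.000127 to 0.073 for nopo and from 0.00024 to 0.144 for this Gen probe. The Gen probe with 52.0% by 4 h was not called (-0.26, SE 0.24, limma adjusted p = 0.756). Its adjusted p ranged from 0.057 to 0.911 over the 21 settings.

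The probe of snoRNA:Psi28S-291, a guide RNA for pseudouridine formation in ribosomal RNA, was the earliest named member. It read 10.77, 10.48 and 11.59 at 0 h, 11.10, 10.90 and 10.88 at t12_25 and 9.58, 9.24, 9.74, 9.73 and 10.61 at 4 h. The arrays at 12 h, with 9.44, 10.21 and 9.78, and at 72 h, with 9.77, 10.40, 10.32 and 8.89, overlapped with those at 4 h, and the share of the fall by 4 h was 106%. At 24 h it had 9.11, 8.64, 9.43, 8.75 and 10.42, and the difference from 4 h of -0.51 (SE 0.34) was not called (adjusted p = 0.567). The highest array of both groups was the one on slide 2.

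Hsp23, a small heat shock chaperone, had the largest fall of the named members at 72 h (-1.95), and the largest SE at 24 h against 4 h. It read 8.78, 9.81 and 9.84 at 0 h, 8.71, 8.73 and 9.29 at t12_25, 8.36, 8.32, 8.41, 9.62 and 9.26 at 4 h, 7.77, 7.59 and 8.86 at 12 h, 7.82, 7.71, 7.68, 8.93 and 8.90 after 24 h, and 7.70, 6.58, 8.05 and 6.65 after 72 h. The 24 h and 4 h arrays overlapped, and their difference of -0.59 (SE 0.37) was not called (adjusted p = 0.542). Within same-numbered pairs the 24 h array was lower in 5 of 5, by differences of -0.73 to -0.36, and the adjusted p was 0.381 with the replicate number as a block. Of the 19 probes in the study's list of heat shock genes, 1 was a member (5.26%, against 0.482% of all probes). Another 3 (all of Hsp27) were in the slower set. At 24 h against 4 h, 4 of the 19 were lower (21.1%, against 3.43% of all probes) and 2 higher (10.5%, against 3.01%).

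Metabolic and regulatory genes made up the rest. Of the 26 probes in the study's list for amino acid catabolism, 2 were members (7.69%, against 0.482% of all probes). CG17896, an enzyme of valine breakdown, had 11.54 ± 0.23 at 24 h, against 12.51 ± 0.40 at 4 h (SD, n = 5 each), and was called (-0.97, SE 0.21, adjusted p = 0.0065). CG11089, an enzyme of purine synthesis that the study listed under amino acid catabolism, had covered 37.9% of its fall by 4 h and had a difference of -0.28 (SE 0.12, adjusted p = 0.262). With the slide as a block it was called (adjusted p = 0.0497, range over 21 settings 0.0497 to 0.615). The zinc finger protein gene Sry-delta had closely spaced arrays, with 10.33, 10.37, 10.30, 10.38 and 10.40 after 24 h, against 10.94, 10.94, 10.88, 11.08 and 10.90 at 4 h, and a difference of -0.59 (SE 0.054, adjusted p = 5.82e-07). Its change of -1.04 at 24 h compared with -1.20 at 72 h.

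Differences near -1 were also found in zuc (-1.22, SE 0.17, adjusted p = 7.44e-05), a nuclease of piRNA production, and nemy (-0.94, SE 0.11), a cytochrome b561 protein. CG3884 (-0.83), CG12391 (-0.80) and the tyrosine kinase gene Btk (-0.70, SE 0.1) were called too. Btk had no fall at 4 h (change 0.04) and 52.1% of it at 12 h. The probes of gfzf (-0.55) and Had2 (-0.63) were not called, with adjusted p of 0.142 and 0.187. With the slide as a block both passed, and over 21 settings the adjusted p ranged from 1.82e-06 to 0.332 for gfzf and from 0.00266 to 0.413 for Had2. In all, 22 of the 29 named probes, for 20 genes, were lower at 24 h than at 4 h.

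**Figure D5:**
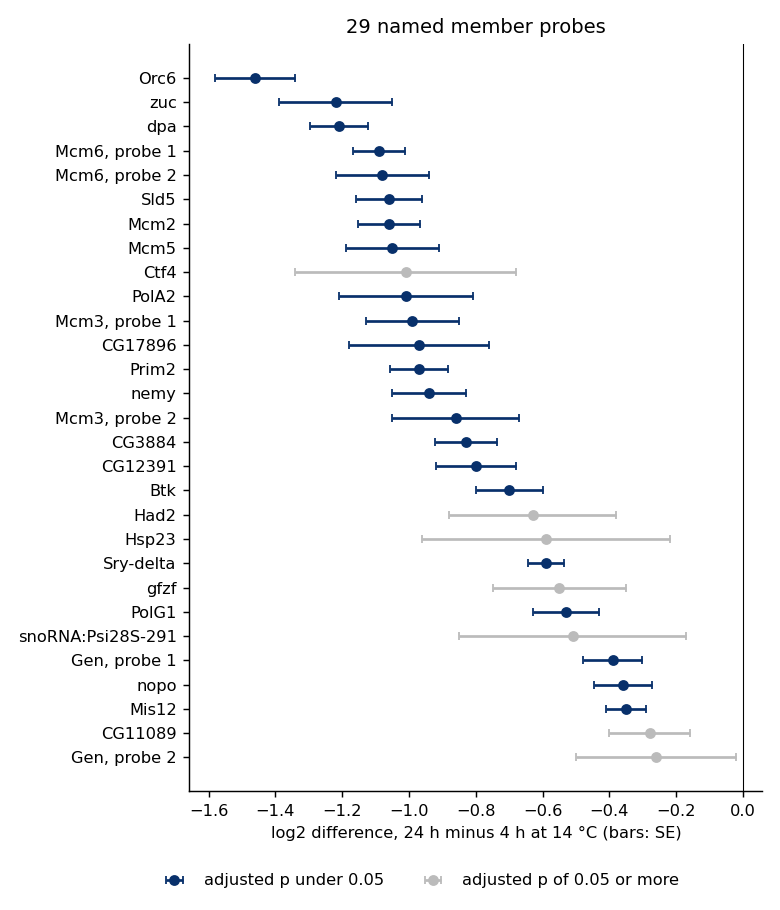
Log2 difference between 24 h and 4 h at 14 °C for the 29 named member probes (points) with the standard error from limma (bars), in order of size. Dark points had an adjusted p under 0.05 (22 probes), grey points did not (7 probes), and all lie below 0.

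The unnamed members held the largest falls of the set. The transcript FBtr0335125 had 3 member probes. The one with the largest fall read 12.03, 11.85 and 11.87 at 0 h, 11.95, 11.92 and 11.82 at t12_25, 11.24, 11.15, 11.24, 11 and 10.97 at 4 h, 9.78, 9.73 and 9.97 at 12 h, 9.73, 9.22, 9.72, 9.69 and 10.21 after 24 h, and 9.11, 9.06, 9.53 and 8.32 after 72 h. The 4 h arrays lay between those at 25 °C and all later ones, the 24 h arrays overlapped with both the 12 h and the 72 h arrays, and the signal at 72 h was 0.134 of that at 25 °C. The changes at 72 h of its 3 probes were -2.90, -2.83 and -1.83. The transcript FBtr0300937 was lowest at 4 h. It read 10.29 to 10.54 at 0 h, 10.59 to 10.64 at t12_25, 8.67, 8.59, 8.67, 8.52 and 8.68 at 4 h, 8.99, 8.59 and 8.85 at 12 h, 8.87, 8.86, 8.89, 8.83 and 8.82 after 24 h, and 8.79, 9.21, 9.00 and 9.15 after 72 h. Its 24 h arrays were all above the 4 h arrays, and the difference of 0.23 missed the threshold over all probes (adjusted p = 0.0913).

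The members had 143 distinct transcript or clone names. Of these, 11 names had more than 1 member probe, 23 in all, and the changes at 72 h of probes under 1 name differed by 0.02 to 1.07, with a median of 0.11. The arrays held 41 further probes under the same names that were not members. In the authors' values 33 of these were below their 25 °C mean at 72 h, 4 by 1 or more, and their median change was -0.42. A probe of Ctf4 outside the set, for example, changed by -0.08 at 72 h and was well above background on 5 of the 6 arrays at 25 °C, whereas the member probe changed by -1.07 and was so on all 6.

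No other list held a member. Between 24 h and 4 h, 1 of 2 probes for E2F and Rb regulators was lower, as were 2 of 7 for redox enzymes (against 3.43% of all probes). For cohesin and condensin, 1 of 3 was higher (against 3.01%). Of 2 DNA repair and 3 ribosome biogenesis probes 0 were called by limma (1 ribosome biogenesis probe was higher at an unadjusted p under 0.05). Among the other 11 process lists of the study, the share of lower probes ranged from 0.0% to 21.2%, against 3.43% of all probes. It was 21.2% for the mitochondrial ribosome (17 of 80), 12.5% for the TCA cycle (4 of 32), 11.5% for beta oxidation (3 of 26) and 10.6% for oxidative phosphorylation (14 of 132), and 3 of 28 peroxisome probes were lower. It was 0.0% for the cytoplasmic ribosome (0 of 134, with 5 lower at an unadjusted p under 0.05).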

How the data were processed

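Spot intensities of 23 arrays (median signal and local background) were deposited by the authors as scanner output, not normalized between arrays. A table of log2 values of the same arrays, which the authors had corrected for background by normexp, brought to common quantiles and adjusted with surrogate variables for batch effects, chose the members. Everything else was computed from the intensities with limma 3.58.1 in R 4.3.3. Local backgrounds above 3 times the array median (23 spots on 7 arrays) were set to that median, normexp was run with an offset of 50, the 43602 gene spots were quantile-normalized and log2-transformed, outlier-flagged spots were set missing, and replicate spots of each of 32162 probes were combined by their median. The 24 h arrays were compared with the 4 h arrays and t12_25 with 0 h by lmFit and eBayes over all 23 arrays in 6 groups, two-sided, with Benjamini-Hochberg adjustment over all probes and a threshold of 0.05. The function was tested on simulated data. All other contrasts chose the members and were not tested.

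The members, lists and comparisons were chosen with earlier results of these data known. Gene names came from supplementary tables of the study and from RefSeq, and 3835 of 32162 probes were named. All named members are reported, with values on every array for the largest fall of each function list and for further members picked after their values had been seen. The other lists examined were cohesin and condensin, E2F and Rb regulators, DNA repair, redox enzymes, ribosome biogenesis and the remaining process lists of the study, among which 0 probes were members. Same-numbered arrays of 24 h and 4 h deviated together (r = 0.422 to 0.836 over probes), and in 5 of 5 pairs both arrays shared a slide. Those of t12_25 and 0 h did so too (r = 0.474 to 0.842). Array 4 of 24 h matched array 2 of 4 h best. For 24 h and 4 h, pairing by replicate number and by slide cannot be told apart, and the main test used neither. The labels do not say which dishes came from separate cultures, and p-values measure the spread between these arrays. Precision is limited by how few arrays each group has. Without arrays outside the quality range the counts were run again, a choice made after seeing the data. Genome build and sequences were not used here.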

Additional observations from a re-analysis of the deposited data

Results flagged for a closer look

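Array 4 of the 24 h group gave the lowest median over the members (-1.30, with a median of -1.16 over the other 4 arrays), and the gap was 0.788 of the range of the group. The same array was the lowest for Prim2 (9.81 against a median of 10.19 in the other 24 h arrays, ratio of gap to range 0.753), CG11089 (10.68 against 11.06, ratio 0.741) and the Mcm6 probe with 3.64% of its fall by 4 h (11.03 against 11.79, ratio 0.737). Without this array the count of members lower at 24 h than at 4 h was 112. Array 5 of 24 h was the highest for nemy (8.38 against 8.02, ratio 0.847) and the lowest for Btk (7.90 against 8.20, ratio 0.773). At 72 h, array 2 was the lowest for Btk (7.29 against 7.70, ratio 0.902) and array 4 for Sry-delta (10.04 against 10.24, ratio 0.85), and at 25 °C array 1 of 0 h was the highest for Mcm2 (13 against 12.85, ratio 0.632). These are 9 of 120 groups of values examined (7.5%), where chance alone marks about 1 in 20.

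The change from 25 °C differed between 24 h and 4 h for 22 named probes in limma, each lower at 24 h. The differences were -1.46 for Orc6, -1.22 for zuc, -1.21 for dpa, -1.09 and -1.08 for Mcm6, -1.06 for Mcm2, -1.06 for Sld5, -1.05 for Mcm5, -1.01 for PolA2, -0.99 and -0.86 for Mcm3, -0.97 for Prim2 and -0.97 for CG17896. They were -0.94 for nemy, -0.83 for CG3884, -0.80 for CG12391, -0.70 for Btk, -0.59 for Sry-delta, -0.53 for PolG1, -0.39 for Gen, -0.36 for nopo and -0.35 for Mis12.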

How the results depend on the processing

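The direction of each median and of each named gene's difference was the same under all alternatives run. Scaling processed signals by the 75th percentile gave 318 members by the same rule (130 shared with the 155) and medians of -0.43 at 4 h, -1.07 at 12 h, -1.33 at 24 h and -1.37 after 72 h. Scanner intensities gave 171 members (146 shared), 0 h alone as baseline 161 (141 shared), t12_25 alone 178 (139 shared), and leaving out single arrays 150 to 169. A normexp offset of 0 gave medians of -1 at 12 h, -1.28 at 24 h and -1.35 at 72 h, and the authors' values, 0 h alone as baseline and slide as a block each gave -0.89 at 12 h. Of the members lower at 24 h than at 4 h, 38 remained at a fold of at least 2, and 109 to 114 were called without single arrays. Over the other settings the count was 105 (75th percentile) to 137 (slide as a block). Higher members numbered 2 with the authors' values, 2 with slide as a block, 1 with only both groups in the fit and 1 without the 6 arrays outside the quality range, and 0 to 0 without single arrays. At t12_25 against 0 h, 2 were higher with the authors' values, and 0 to 0 were called without single arrays. Without the 6 arrays outside the quality range, an alternative chosen after seeing the data that left 1 array each at 12 h and 72 h, 112 members were lower at 24 h than at 4 h, the 72 h median was -1.34 and the share of the fall by 12 h was 65.1%.

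With the replicate block 123 members were lower and 0 higher at 24 h than at 4 h, 0 were called at t12_25 against 0 h, and Ctf4 (adjusted p = 0.00795) and Had2 (adjusted p = 0.011) passed in limma. The block changed no other named call. With slide as a block, gfzf (adjusted p = 4.93e-06), Ctf4 (5.73e-06), Had2 (0.00266) and CG11089 (0.0497, range over all settings 0.0497 to 0.615) passed, and gfzf, Ctf4 and Had2 also passed with the authors' values (1.82e-06, 1.04e-05 and 0.044) and with scan date as a block (0.0207, 0.000517 and 0.032). Ctf4 passed as well without the 6 arrays outside the quality range (0.0425), without array 5 of 4 h (0.0422) or without array 2 of 24 h (0.045). On signals scaled by the 75th percentile nopo (0.073) and a Gen probe (0.144) were lost. The cause was not tested. A comparison of promoter motifs was not run, since no sequences were used here.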
